A study of Mus musculus with 3 samples.

Results

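Genes that report on and restrain extracellular signal-regulated kinase (ERK) signalling were followed in mouse embryonic stem (ES) cells and in the endoderm made from them. The set held 9 genes: the receptor-to-Ras inhibitors Spry1, Spry2, Spry4 and Spred1, the mitogen-activated protein kinase phosphatases Dusp2, Dusp4 and Dusp6, and the ETS transcription factors Etv4 and Etv5. Every probe of the signal table with one of these symbols was taken, which gave 15 probes of 25697. Of these, 12 probes of 7 genes were tested, because they were detected on at least 2 of the 6 arrays (detection p-value under 0.05). The 2 probes of Spry1 and the single probe of Spry2 were not, and they are described by their signals.

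All cells were of a 129 strain background and held Sox17-GFP, a fluorescent reporter of the endoderm transcription factor Sox17. The Activin group was Sox17-GFP(+) cells after recombinant human Activin A at 50 ng/ml, and the Nodal group was Sox17-GFP(+) cells after recombinant mouse Nodal at 1000 ng/ml. Both are named for day 7, within a protocol of 6 to 8 days. The undifferentiated group was grown over mouse embryonic fibroblast feeders on gelatin in medium holding leukaemia inhibitory factor (LIF), which the listed differentiation medium does not name; there was no untreated group of the same day. Each group had 2 arrays, and the labels do not say whether these came from separate cultures, so the p-values measure only the spread between arrays. How the GFP(+) cells were isolated, and whether the line was 1 clone, is not given in the sources used here.

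ERK is the last kinase of a chain that runs from receptor tyrosine kinases, such as the fibroblast growth factor (FGF) receptors, through Ras, Raf and MEK. Its activity switches on genes that then act back on the chain: Sprouty and Spred proteins act above ERK between the receptor and Raf, and dual-specificity phosphatases remove the activating phosphates from the kinase itself. Etv4 and Etv5 belong to the PEA3 group of ETS factors, whose transcription FGF signals raise in many embryonic tissues. In mouse ES cells, FGF4 made by the cells themselves drives ERK and primes them to leave the naive state, and Nodal and Activin act through a separate receptor family and SMAD2 and SMAD3.

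Promoter sequences are shown for 3 genes with unlike results below: Etv5, which had the largest decrease of the set, Dusp6, whose brightest probes moved least, and Dusp2, which differed between the treatments. They are the 250 bases before the RefSeq gene start (build GRCm38.p6), at chr16:22439571-22439820 on the minus strand for Etv5 (the outer of its starts), chr10:99262981-99263230 on the plus strand for Dusp6 and chr2:127335909-127336158 on the plus strand for Dusp2. Capitals mark the letters CGGAA, which hold the GGAA core bound by ETS factors, and CCAAT, a general promoter element, each on either strand. GGAA without the C before it was not marked or counted.
Etv5: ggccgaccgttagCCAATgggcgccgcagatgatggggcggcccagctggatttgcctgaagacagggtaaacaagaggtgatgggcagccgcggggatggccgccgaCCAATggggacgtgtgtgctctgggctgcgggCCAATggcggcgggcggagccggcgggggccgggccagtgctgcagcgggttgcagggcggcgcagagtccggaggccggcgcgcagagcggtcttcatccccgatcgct
Dusp6: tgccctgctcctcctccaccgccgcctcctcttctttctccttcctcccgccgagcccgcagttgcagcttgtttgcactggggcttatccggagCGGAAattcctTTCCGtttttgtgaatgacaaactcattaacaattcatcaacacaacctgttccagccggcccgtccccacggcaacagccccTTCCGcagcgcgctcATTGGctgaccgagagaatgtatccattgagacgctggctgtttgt
Dusp2: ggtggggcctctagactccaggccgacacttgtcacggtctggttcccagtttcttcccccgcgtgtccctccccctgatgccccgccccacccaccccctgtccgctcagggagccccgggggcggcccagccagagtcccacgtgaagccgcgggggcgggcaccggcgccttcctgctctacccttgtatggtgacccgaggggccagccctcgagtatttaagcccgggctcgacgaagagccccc
Dusp6 held 3 matches to CGGAA and 1 to CCAAT, Etv5 held 3 to CCAAT and 0 to CGGAA, and Dusp2 held 0 of either; no matches overlapped each other. The search covered 7 windows of 6 of the 9 genes, with Spry4, Dusp4 and Etv4 left out, and CGGAA was in 2 of them (Dusp6 and Spred1) and CCAAT in 4. Over all 32851 windows of this length in the table, 25.2% held CGGAA and 33.8% held CCAAT. The longer ETS motif CCGGAAG (in 6.91% of all windows, and always containing CGGAA), the cyclic AMP response element TGACGTCA (1.55%), the AP-1 motif TGANTCA (6.75%), the FOXH1 motif AATNCACA (3.18%) and the SMAD palindrome GTCTAGAC (0.167%), each searched on both strands, were in 0 of the 7. A match is a string of letters and not a measured binding site.

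On each array 49.34% to 50.56% of probes were detected, and the median raw signal was 55.16 to 60.85. Levels below are log2 signals after background correction with an offset of 16 and quantile normalization; a level near 5 is at the detection floor, since the lowest detected probe of an array lay at 4.99 to 5.06. Endoderm markers passed as higher in 10 of 10 tested cases in both treated groups, and ES cell markers as lower in 9 of 9. Of all genes, 36.3% passed as higher after Activin and 36.5% after Nodal, and 36.8% and 37% as lower. Sox17 was among the endoderm markers, and the treated cells were Sox17-GFP(+), so its rise follows from that choice. Foxa2, Foxa1, Lhx1 and Mixl1 were undetected on the undifferentiated arrays and entered the test only through treated arrays. Of the ES cell markers, Fgf4 was undetected on all treated arrays and Tdh on both Activin arrays. Fgf4 entered the test only through the undifferentiated arrays, so lower was its likely outcome. Fibroblast markers, which feeders would carry, summed to a normalized signal of 3486 and 3567 on the undifferentiated arrays, 1078 and 1094 after Activin and 1184 and 1266 after Nodal. Of these 15 markers 11 were detected on an undifferentiated array, while Col1a2, Lum, Postn and Pdgfrb were not. Timp1 made up 59% to 60.3% of the undifferentiated sum; without it the sums were 1416 to 1428, against 785 to 836 after Activin and 897 to 952 after Nodal. Of the 12 fibroblast markers tested, 9 passed as lower after Activin and 8 after Nodal. Among these, Col1a1, Col3a1, Mgp and S100a4 were undetected on all treated arrays and entered the test only through the undifferentiated arrays. But Pdgfra (1.6 and 2.07) and Twist1 (1.32 and 1.2) were higher in both treated groups and Pdgfrb (0.35) was higher after Nodal. Macrophage markers summed to 8664 and 9161 in undifferentiated cells against 553 to 573 in the treated cells. Of those 13 markers 8 were detected on an undifferentiated array, and Csf1r, Ptprc, Fcer1g, Itgam and Aif1 were not. Laptm5 made up 78.6% to 78.9% of the undifferentiated macrophage sum. Without it the sums were 1830 to 1961 against 296 to 324 in the treated cells. All 8 tested macrophage markers passed as lower in both treated groups. Of these, Lyz2, Adgre1, Tyrobp, Cd14 and Mrc1 were undetected on all treated arrays. They entered the test only through the undifferentiated arrays, so lower was their likely outcome. Both summed levels thus differ between the same groups as the comparisons with undifferentiated cells below, and their part in those was not tested. In such bulk RNA, fewer cells of a type and less RNA per cell cannot be told apart.

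**Figure D1:**
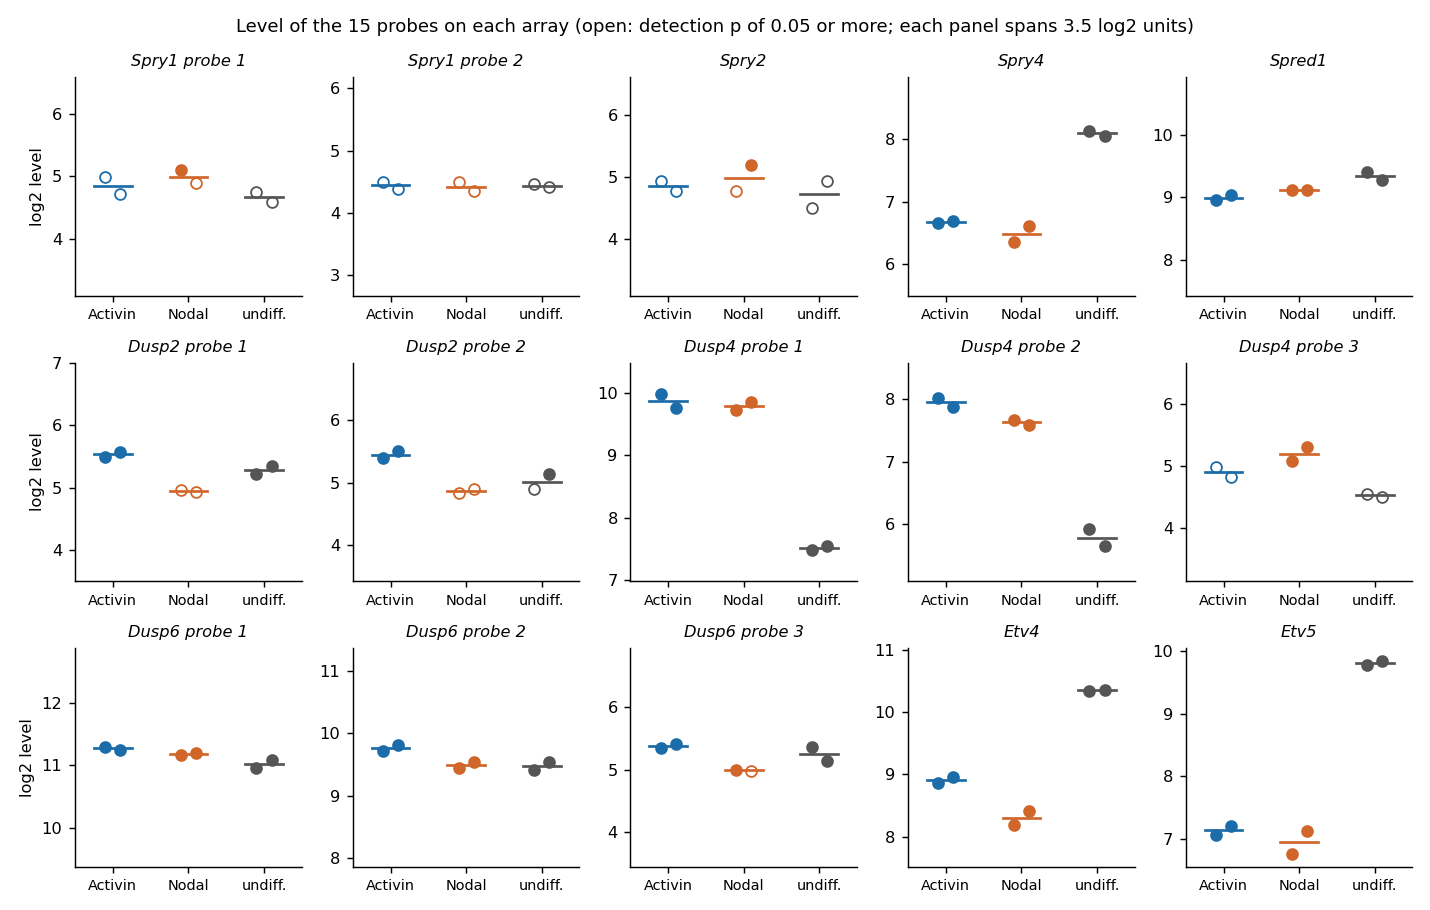
Log2 level of each of the 15 probes on the 6 arrays. Points are arrays, bars are group means, and open points are arrays with a detection p-value of 0.05 or more; each panel spans the same range of log2 units. Spry4, Etv4 and Etv5 are highest on both undifferentiated arrays, Dusp4 is lowest there by all 3 probes, and both Dusp2 probes are undetected on both Nodal arrays.

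Among the Sprouty and Spred genes, only Spry4 had a difference of more than 1 log2 unit. Spry4 encodes a Sprouty protein that dampens growth factor signalling towards Ras and Raf. Its level was 8.13 and 8.06 in the undifferentiated state, 6.66 and 6.69 under Activin, and 6.36 and 6.61 under Nodal. Every treated array lay below both undifferentiated ones, and the Activin and Nodal ranges did not overlap by a small margin. Spry4 fell by 1.42 after Activin (SE 0.103, 2.67-fold, adjusted p = 1.43e-06 by limma with Benjamini-Hochberg adjustment over all 14050 tested probes) and by 1.61 after Nodal (SE 0.103, 3.05-fold, adjusted p = 5.74e-07). The Nodal minus Activin difference was -0.19 (95% interval -0.43 to 0.04, adjusted p = 0.457). The order of levels was undifferentiated, Activin, Nodal, and the last 2 did not differ beyond their spread.

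Spred1, a Sprouty-related protein that brings the Ras inhibitor neurofibromin to the membrane, moved little. Its level was 8.95 and 9.03 under Activin, 9.11 and 9.12 under Nodal, and 9.4 and 9.27 in the undifferentiated state, so the undifferentiated arrays were highest and no groups overlapped. The change was -0.35 after Activin (SE 0.0903, adjusted p = 0.00641), which passed, and -0.22 after Nodal (SE 0.0903, adjusted p = 0.0503), which did not. The first call was lost under median scaling (-0.2, adjusted p = 0.139) and without undifferentiated replicate 1 (highest adjusted p = 0.0529), and the second became a pass under 7 of the alternative settings. Nodal and Activin cells differed by 0.13 (95% interval -0.08 to 0.33, adjusted p = 0.599).

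Spry1 and Spry2, Sprouty genes that many growth factors induce, were at the detection floor in all groups. The brighter Spry1 probe had a raw signal of 59.1 and 50.9 under Activin, 62.5 and 54 under Nodal, and 49.9 and 44.3 in the undifferentiated state. It passed detection on 1 of the 6 arrays, Nodal replicate 1. The dimmer Spry1 probe read 33 to 42.4 and was detected on 0 of 6 arrays. Spry2 read 58 and 52.6 under Activin, 53.5 and 62.1 under Nodal, and 42.4 and 53.5 in the undifferentiated state, and it passed detection on Nodal replicate 2 alone. With the detection filter removed none of these 3 probes passed in any comparison. The largest of their differences was 0.33 for the brighter Spry1 probe after Nodal (95% interval 0.03 to 0.62, adjusted p = 0.0794). Differences in Spry1 and Spry2 were thus not detectable with these probes, which does not show that the transcripts are absent.

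The phosphatase genes did not move together. Dusp4, a nuclear phosphatase of ERK and related kinases, was the only gene of the set that rose by more than 1 log2 unit. Its brightest probe had levels of 9.98 and 9.76 under Activin, 9.73 and 9.85 under Nodal, and 7.48 and 7.54 in the undifferentiated state. All 4 treated arrays lay above both undifferentiated arrays, and the treated groups overlapped each other. This probe rose by 2.36 after Activin (SE 0.104, 5.12-fold, adjusted p = 4.46e-08) and by 2.28 after Nodal (SE 0.104, 4.86-fold, adjusted p = 5.44e-08). A second Dusp4 probe rose by 2.17 (4.5-fold) and 1.84 (3.59-fold), from 5.92 and 5.65 in undifferentiated cells to 8.02 and 7.88 after Activin and 7.67 and 7.59 after Nodal. The third Dusp4 probe read 4.98 and 4.82 under Activin, 5.08 and 5.3 under Nodal and 4.56 and 4.51 in the undifferentiated state, and it was detected on both Nodal arrays and on no other. It thus sat at the floor and had the direction of the others. It reached the test only through the Nodal arrays, where it was highest, so it lends no separate support. It passed as higher after Nodal, at least 1.1-fold (log2 difference 0.66, adjusted p = 0.000356), and after Activin (0.37, adjusted p = 0.0115), where no fold is given because neither group was detected. The authors' averaged values put these differences at 1.16 and 0.8, and the second call was lost without Activin replicate 1 or undifferentiated replicate 2 (highest adjusted p = 0.0756). Dusp4 in Nodal and Activin cells differed by -0.08, -0.32 and 0.29 by the 3 probes, none of which passed (adjusted p = 0.823, 0.223 and 0.254).

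Dusp6, the cytoplasmic ERK phosphatase used widely as a readout of FGF signalling, stayed within 0.4 log2 units by every probe. The brightest probe had levels of 11.3 and 11.24 under Activin, 11.16 and 11.19 under Nodal, and 10.95 and 11.09 in the undifferentiated state. The Activin arrays were highest and the undifferentiated arrays lowest, with no overlap between groups. The second probe read 9.72 and 9.81, 9.44 and 9.55, and 9.42 and 9.54 in the same order, so here the Nodal and undifferentiated groups overlapped. After Activin this probe rose by 0.25 (SE 0.0916, 1.19-fold, adjusted p = 0.0351) and the second probe by 0.29 (SE 0.0938, 1.22-fold, adjusted p = 0.0204), while the third differed by 0.13 (adjusted p = 0.265). After Nodal the brightest 2 probes differed by 0.15 (95% interval -0.06 to 0.36, adjusted p = 0.163) and 0.01 (95% interval -0.2 to 0.23, adjusted p = 0.905). The third probe, with levels of 5.35 and 5.41 under Activin, 5 and 4.98 under Nodal and 5.36 and 5.14 in the undifferentiated state, passed as lower (log2 difference -0.26, adjusted p = 0.038), so the probes of Dusp6 disagreed after Nodal. All 3 calls of Dusp6 were fragile. The first was lost without any 1 of 5 arrays (all but undifferentiated replicate 2, highest adjusted p = 0.208), the second without Activin replicate 2 or undifferentiated replicate 1 (highest adjusted p = 0.122), and the third without either Nodal array or undifferentiated replicate 1 (highest adjusted p = 0.269).

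Dusp2, an inducible nuclear phosphatase of ERK, had low levels that differed between the treatments. Its first probe read 5.5 and 5.58 under Activin, 4.96 and 4.93 under Nodal, and 5.23 and 5.35 in the undifferentiated state. Activin arrays were highest and Nodal arrays lowest, with the undifferentiated arrays between them. The second probe gave the same order of means, with 5.39 and 5.5, 4.84 and 4.89, and 4.89 and 5.13, and here a Nodal and an undifferentiated array had the same level. The second probe was detected on only 1 undifferentiated array, so it reached the test only with the Activin arrays. Both probes were detected on both Activin arrays and on neither Nodal array. After Activin they rose by 0.24 (SE 0.0904, adjusted p = 0.0342) and 0.44 (SE 0.105, adjusted p = 0.00423) over undifferentiated cells. After Nodal the first passed as lower, at least 1.22-fold (adjusted p = 0.0061), and the second differed by -0.14 (adjusted p = 0.247). The rise by the first probe was lost without any 1 of 5 arrays (all but undifferentiated replicate 2, highest adjusted p = 0.19) and with no background correction (0.15, adjusted p = 0.107), and its decrease after Nodal was lost without undifferentiated replicate 2 (highest adjusted p = 0.0507).

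Both ETS factor genes fell in both treated groups. Etv5 had levels of 7.06 and 7.21 under Activin, 6.75 and 7.13 under Nodal, and 9.78 and 9.85 in the undifferentiated state. The treated arrays lay far below the undifferentiated ones and overlapped each other. Etv5 fell by 2.68 after Activin (SE 0.128, 6.42-fold, adjusted p = 7.99e-08) and by 2.88 after Nodal (SE 0.128, 7.37-fold, adjusted p = 4.8e-08). Ranked by size among all 14050 probes, these were the changes number 547 and 470. Nodal and Activin cells differed in Etv5 by -0.2 (95% interval -0.49 to 0.09, adjusted p = 0.555).

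Etv4 had levels of 8.86 and 8.96 under Activin, 8.19 and 8.41 under Nodal, and 10.34 and 10.35 in the undifferentiated state. No groups overlapped, and the Nodal arrays were the lowest. Etv4 fell by 1.43 after Activin (SE 0.101, 2.7-fold, adjusted p = 1.12e-06) and by 2.05 after Nodal (SE 0.101, 4.13-fold, adjusted p = 9.3e-08). In the order undifferentiated, Activin, Nodal, each neighbour differed past the test, though the last step lost its call without 1 of the treated arrays.

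**Figure D2:**
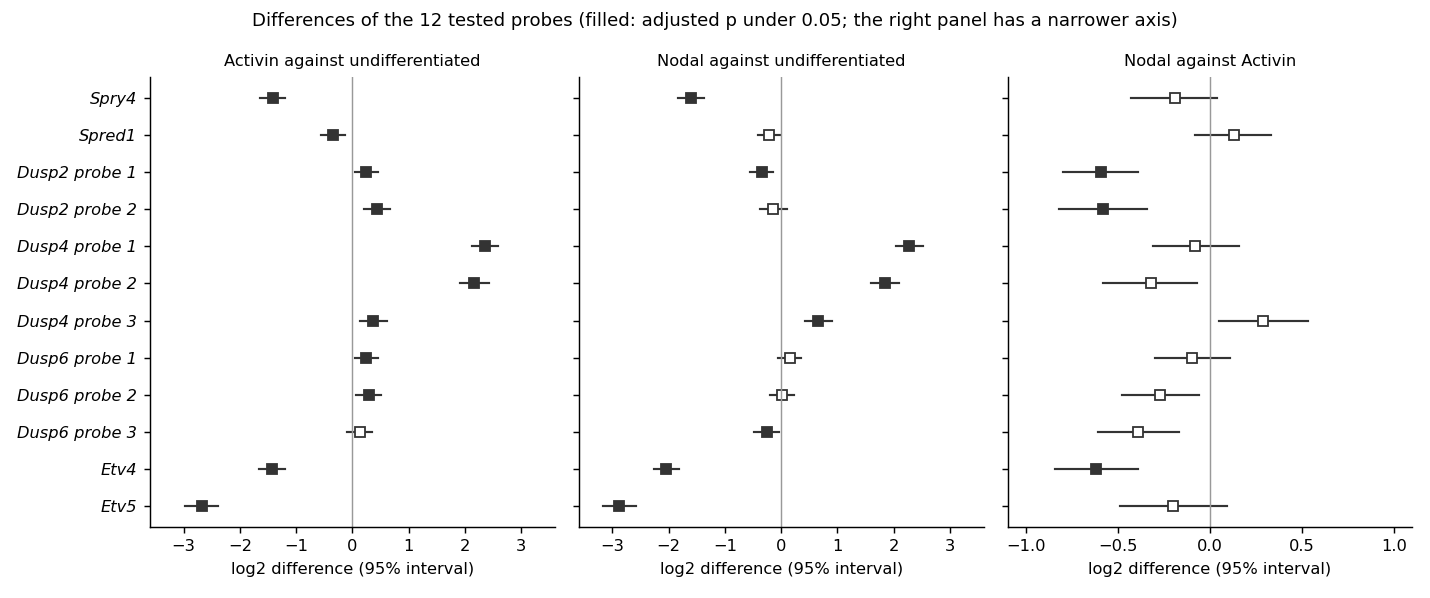
Log2 difference of each of the 12 tested probes in the 3 comparisons, with its 95% interval (not adjusted for the number of probes); filled squares had an adjusted p under 0.05. Spry4, Etv4 and Etv5 lie left of 0 and 2 of 3 Dusp4 probes lie near 2 in both comparisons with undifferentiated cells, and in the narrower right panel both Dusp2 probes and Etv4 lie near -0.6.

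Counted over the set, 11 of 12 tested probes passed after Activin. Of these, 7 were higher (the probes of Dusp2, Dusp4 and 2 of Dusp6) and 4 lower (Spry4, Spred1, Etv4 and Etv5). Among the higher, the dimmest Dusp4 probe was detected in neither group, and the second Dusp2 probe reached the test only with the Activin arrays. In this comparison 72.5% of all tested probes passed, 35.2% higher and 37.3% lower, so passing by itself set these genes little apart. By the brightest probe of each gene, 3 genes were higher and 4 lower (36.3% and 36.8% of all genes), with a median difference of -0.35 against -0.02 over all 10231 tested genes. After Nodal 8 of 12 probes passed, 3 higher (Dusp4) and 5 lower, against 73.2% of all probes (35.3% higher, 37.9% lower). The dimmest of these Dusp4 probes reached the test only through the Nodal arrays. By brightest probe 1 gene was higher, 4 were lower (36.5% and 37% of all genes) and 2 did not pass, with a median of -0.35 against -0.01 over all genes. Both comparisons used the same undifferentiated arrays. In each of them 5 of the 12 probes passed with at least a 2-fold difference (Spry4, Etv4, Etv5 and 2 probes of Dusp4), against 26% of all probes after Activin and 26.9% after Nodal.

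The 4 genes with larger changes kept their direction under every alternative run and their call under every one with a test (for Dusp4, by its brighter 2 probes), including the removal of any 1 array. Spry4 ranged from -1.45 to -1.17 after Activin and from -1.73 to -1.31 after Nodal, and Etv4 from -1.48 to -1.35 and from -2.15 to -1.94. Etv5 ranged from -2.76 to -2.42 and from -3.07 to -2.58, and the brightest Dusp4 probe from 2.16 to 2.56 and from 2.09 to 2.5.

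The Nodal and Activin groups were then compared directly, at unequal doses of proteins from different species. Of the 12 probes 3 passed, all lower after Nodal, against 2.04% of all 14050 probes (1.06% higher, 0.975% lower). By brightest probe these are 2 of 7 genes, against 1.03% of all genes called lower. Dusp2 was at least 1.44-fold lower by its first probe (log2 difference -0.59, SE 0.0904, adjusted p = 0.0143) and at least 1.35-fold lower by its second (-0.58, SE 0.105, adjusted p = 0.0286), since it was undetected on both Nodal arrays. The second Dusp2 probe reached the test only with the Activin arrays, where it was highest, so its call adds no separate support. Etv4 fell by 0.62 (SE 0.101, 1.53-fold, adjusted p = 0.0186). For both genes the 2 Nodal arrays lay below the 2 Activin arrays. Over the 12 probes the median difference was -0.24 against 0 over all probes. By the brightest probe of the 7 genes it was -0.19 against 0 over all genes. Several of the 12 probes measure the same gene, and 9 did not pass. Spred1 and the dim Dusp4 probe were positive in sign. ES cell markers moved in the same comparison. They summed to 3759 to 3835 after Nodal and 1847 to 2176 after Activin, with a median difference of 0.43. Of these markers 2 of 9 passed as higher, Tdh (0.48) and Dppa5a (1.17). Tdh was undetected on both Activin arrays, so it was at least 1.33-fold higher. At an unadjusted p under 0.05 in limma were 7 of 9, against 2026 of all 14050 probes. Without Dppa5a the sums were 902 to 919 against 681 to 745. Of 10 endoderm markers 1 passed, Mixl1 (-0.78), of the fibroblast markers Pdgfra was higher (0.47), and of the macrophage markers Cd68 was lower (-0.69). The calls of Tdh and Pdgfra were lost without any 1 of the 6 arrays. Those of Mixl1 and Cd68 were lost without some single arrays. The part of these markers in the Dusp2 and Etv4 differences was not tested.

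These calls rest on few arrays. Leaving out any 1 of the Activin or Nodal arrays left 0 or 1 of the 3 probes past the test, with 5 to 7 at an unadjusted p under 0.05 in limma. Without one of these arrays the Etv4 difference was -0.72 to -0.51 with an adjusted p of up to 0.163, and the Dusp2 differences were -0.63 to -0.56 and -0.64 to -0.52 with adjusted p of up to 0.127 and 0.196. Removing the detection filter, which raises the number of probes adjusted over to 25697, also ended the calls of Etv4 (adjusted p = 0.0737) and the second Dusp2 probe (adjusted p = 0.0946).

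The wider pathway was read from lists chosen with earlier results of these data known, each gene by its brightest probe. For such probes 73.1% of all genes passed after Activin, 73.5% after Nodal and 2.25% between Nodal and Activin. No gene of the 4 lists that passed in the main analysis changed sign under the scaling alternatives.

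Of the genes of the cascade itself, 15 of 20 were tested. After Activin 7 passed as higher and 3 as lower, and after Nodal 7 and 2, leaving 5 and 6 that did not pass. Of the genes lower after Nodal, Map2k1, which encodes MEK1 (-0.32), lost its call without either Nodal array or either undifferentiated array (adjusted p = 0.0741 to 0.0953). The lower count then came to 1, except without undifferentiated replicate 2, where Frs3 gained a call, and it also came to 1 under median scaling. The median difference was 0.17 and 0.1. Gab1, a docking protein that couples receptors to the phosphatase SHP2, fell by 1.96 after Activin (SE 0.102) and by 1.72 after Nodal (SE 0.102). Shoc2, a scaffold that promotes Raf activation, rose by 1.29 and 1.11, and Ptpn11, which encodes SHP2, by 0.99 and 0.97 (0.57 to 0.71 after Activin and 0.42 to 0.5 after Nodal by other probes). Mapk3, which encodes ERK1, rose by 0.96 and 1.09, and the Raf kinase gene Araf by 0.95 and 1.01.

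Other negative regulators numbered 11 tested of 15, with 6 higher and 2 lower after Activin (median 0.34) and 6 higher and 3 lower after Nodal (median 0.29). Lrig1, which promotes the turnover of receptor tyrosine kinases, rose by 2.61 (SE 0.139) and 2.25. Il17rd, the FGF antagonist also called Sef, rose by 1.77 (SE 0.0943) and 1.5 by its brightest probe, and by 0.88 and 0.4 by another. Errfi1, an inhibitor of the EGF receptor family, rose by 1.2 and 1.19. Dusp1, an immediate early phosphatase, fell by 1.81 (SE 0.097) after Activin and by 1.95 after Nodal. Inhibitors of the pathway therefore moved in both directions, as the phosphatases Dusp4 and Dusp1 did.

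Other ERK output genes numbered 11 tested of 12, with 2 higher and 4 lower after Activin (median -0.22) and 2 higher and 6 lower after Nodal (median -0.28). Etv1, the remaining PEA3 factor, was undetected on all treated arrays and at least 3.91-fold lower after Activin (adjusted p = 4.91e-08) and at least 3.96-fold lower after Nodal (adjusted p = 2.95e-08). Etv1 entered the test only through the undifferentiated arrays, so lower was its likely outcome. The other PEA3 genes, Etv4 and Etv5, were detected on all 6 arrays and passed as lower in both comparisons, against 36.8% and 37% of all genes. Fos, an immediate early AP-1 gene, fell by 2.32 and 2.36. The genes that rose were Flrt3, a membrane protein induced by FGF in the frog embryo (3.1 and 3.5), and Phlda1 (2.01 and 2.28), a gene used in scores of ERK output.

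FGF ligands and receptors numbered 9 tested of 11, with 5 higher and 4 lower in both comparisons. Of the higher, Fgf5, Fgf8, Fgfr1 and Fgfr2 were undetected on both undifferentiated arrays. They entered the test only through treated arrays, so higher was their likely outcome. Of the lower, Fgf4 and Fgfr3 were undetected on all treated arrays and entered only through the undifferentiated arrays, so lower was their likely outcome. Fgf15 was undetected on both Activin arrays. Fgf4, the ligand of ES cells, was at least 4.65-fold lower after Activin and at least 4.71-fold lower after Nodal, and Fgf17 fell by 2.67 after Activin and fell by 3.25 after Nodal (-0.8 and -0.81 by another probe). Fgf5 was at least 149-fold and 133-fold higher, Fgf8 at least 91.2-fold and 68.7-fold higher, and Fgf10 rose by 3.83 and 3.65. In the comparison of Nodal with Activin, Fgf17 was the single gene of the 4 lists that passed (log2 difference -0.58, adjusted p = 0.0173), and its call was lost without Activin replicate 2 or either Nodal array (highest adjusted p = 0.14). Among the other lists 0 of 15, 0 of 11 and 0 of 11 genes passed by limma. At an unadjusted p under 0.05 in limma were 2, 3 and 6 of them, against 2026 of all 14050 probes. The 6 belong to the output genes, of which 1 passed as higher and 3 as lower with no background correction.

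**Figure D3:**
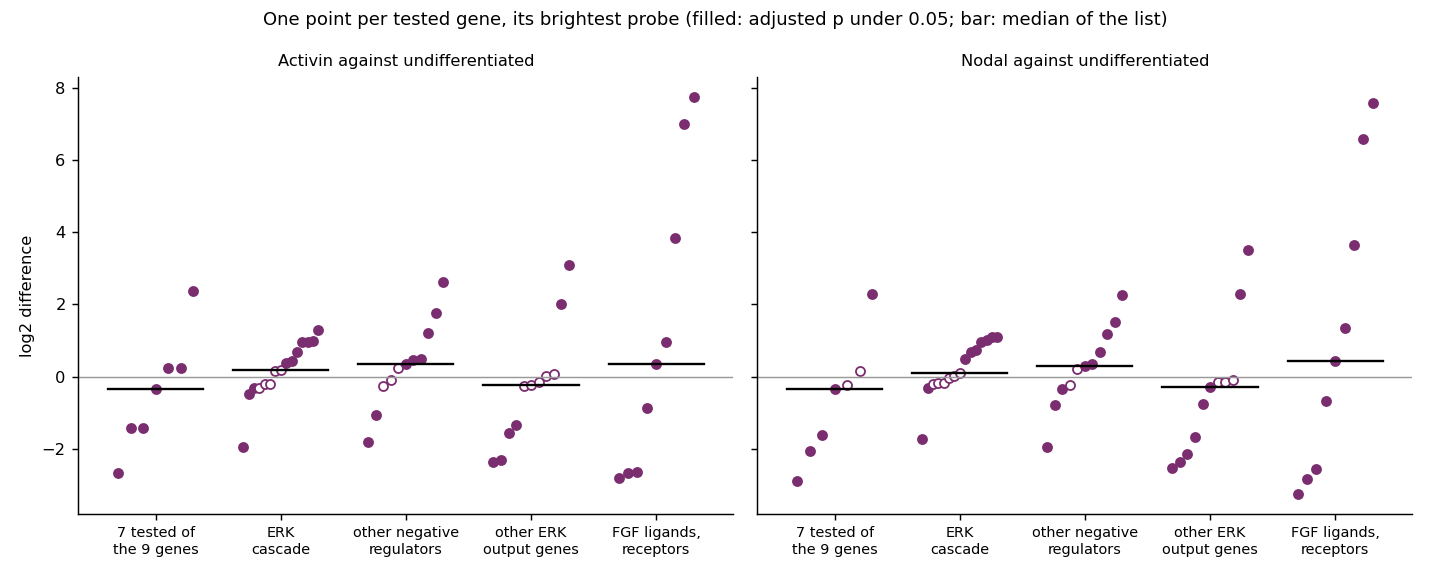
Log2 difference from undifferentiated cells of every tested gene of the set and of the 4 pathway lists, after Activin and after Nodal, with 1 point per gene for its brightest probe and a bar at the list median. Filled points had an adjusted p under 0.05. Each list has points on both sides of 0, and the widest spread is that of FGF ligands and receptors.

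The genes with the most similar profiles were sought for the 3 genes of the set whose group means spanned the widest range: Etv5 (2.88), Dusp4 (2.36) and Etv4 (2.05). Likeness was the root mean square difference of log2 levels, each centred on its own mean over the 6 arrays, among 10230 other genes. The closest to Etv5 were the integrin gene Itga11 (0.0617) and the ubiquitin ligase subunit gene Fbxo2 (0.0694). Itga11 was undetected on all treated arrays, so its level there is only a bound. The closest to Dusp4 were the zinc finger gene Zfp202 (0.0412), undetected on both undifferentiated arrays, and the potassium channel gene Kcnn1 (0.0508). The closest to Etv4 were the tubulin gene Tuba3a (0.0915) and the adhesion molecule gene Icam1 (0.113), both of which were also lowest on the Nodal arrays. Arrays of 3 groups give few independent points, and many genes have such profiles.

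**Figure D4:**
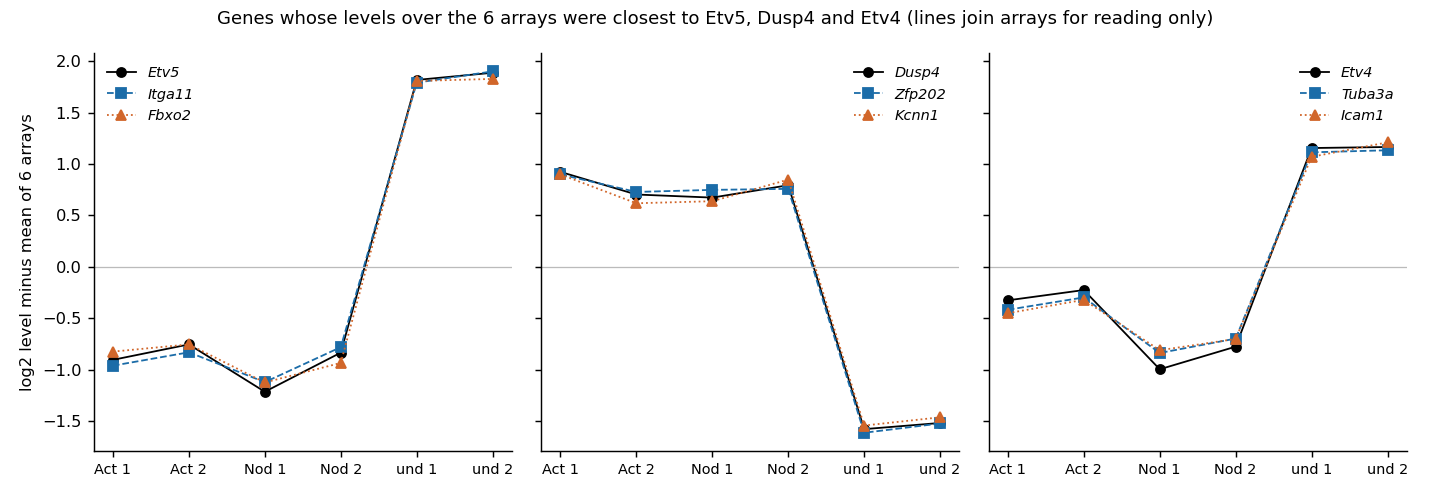
Log2 level minus the mean of the 6 arrays for Etv5, Dusp4 and Etv4 (black) and the 2 genes closest to each, by array: Activin (Act), Nodal (Nod) and undifferentiated (und) replicates 1 and 2. The lines within a panel nearly coincide, with differences of 0.0412 to 0.113 (root mean square, log2).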

How the data were processed

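Per the labels' protocols, total RNA was amplified to biotinylated cRNA and hybridised to Illumina arrays, read in 1 colour. Per the file headers, the deposited table gives for each of 25697 probes on 6 arrays an intensity that was not normalized, and a detection p-value. A second deposited table holds intensities that the authors averaged over the replicates of a sample; its negative values show background subtraction, and its normalization is not stated. The sources used here do not give the array model or the software.

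Signals were corrected with limma 3.58.1 in R 4.3.3 (normal-exponential model, background inferred from the detection p-values, offset 16), quantile-normalized and log2-transformed. Probes with a detection p-value under 0.05 on at least 2 arrays were kept (14050). All 6 arrays entered a single linear model of the 3 groups (lmFit, eBayes, two-sided), with Benjamini-Hochberg adjustment over all probes tested and a threshold of 0.05. Probes were tested singly, because the genes are given by all their probes; lists used the brightest probe of a gene. Symbols were updated through RefSeq names (GRCm38.p6): 7082 probes were updated and 1067 kept the file symbol. Where the lower group was undetected on both arrays, a fold is a lower bound, computed from the lowest detected level of each array or the probe's own level if higher. The fit was tested on simulated data. The number of arrays limits the precision.

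The genes, lists and tests were chosen with earlier results of these data known. Named list genes were up to 4 per list with the largest change among those that passed in each comparison with undifferentiated cells; the most similar genes were the closest 2 to each of the 3 genes with the widest range. Alternatives changed the background correction, normalization, filter, model and arrays. Groups follow the sample titles; the series design text calls the first sample SOX17-GFP (+), and the sample descriptions give 2, 3 and 4 replicates, while 2 columns per group are present.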

Additional observations from a re-analysis of the deposited data

Results flagged for a closer look

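By the test of the difference itself, 3 of the 12 tested probes of the set passed between Nodal and Activin, against 2.04% of all 14050 probes. All 3 calls depended on single arrays, as described above. The Nodal minus Activin log2 difference was -0.59 for the first Dusp2 probe, -0.58 for the second and -0.62 for Etv4. All were lower on both Nodal arrays than on both Activin arrays. Both Dusp2 probes were undetected on both Nodal arrays, so their folds are given above as lower bounds. The second Dusp2 probe reached the test only with the Activin arrays, where it was highest.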

How the results depend on the processing

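Each comparison had 277 values of single probes under the alternatives. Of these, 239 were the same after Activin, 254 after Nodal and 250 between Nodal and Activin. Where there was a test, the same meant an unchanged direction and side of the threshold. The authors' averaged values had no test, and there it meant a value within the probe's residual standard deviation of the main difference. No call turned direction. The 6 changes of sign were all of differences that did not pass: the brightest Dusp4 probe between Nodal and Activin without Activin replicate 1 (0.03; range without 1 array -0.19 to 0.03), and the second Dusp6 probe after Nodal without Nodal replicate 2 or undifferentiated replicate 1 (-0.04; range -0.04 to 0.07). The number of probes of the set that passed after Activin, 11, became 7 with only the brightest probe of each gene, where 7 were tested, and was 7 to 10 without 1 array. After Nodal it was 6 to 8 without 1 array, against 8. Between Nodal and Activin the 3 calls became 1 without the filter, 1 with a detection p-value under 0.01, which removed Dusp2, and 0 to 3 without 1 array (5 to 7 at an unadjusted p under 0.05). Over the whole table that comparison gave 286 calls, against 518 without background correction, 517 with an offset of 50, 70 without the filter, 487 with a mean-variance trend and 52 to 283 without 1 array; the cause was not tested.

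Median scaling moved the median of all probes after Activin from -0.032 to 0.07 and the higher share of calls from 48.6% to 55.7%. The replicate numbers of the columns are not shown to pair arrays (correlations of deviations 0.097, 0.001 and 0.032), and with the replicate block 11, 8 and 3 probes of the set passed, as without it. A chip block was not run, because the columns name no chip. The authors' averaged values plus 16 gave -0.58 for Etv4 and -0.68 and -0.69 for the Dusp2 probes between Nodal and Activin. Probes near the detection floor have compressed differences, which limits Spry1, Spry2, Dusp2 and the dim probes of Dusp4 and Dusp6.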
